A study of Mus musculus with 37 samples.

Results

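The tight junction genes described here are 6 claudins (Cldn3, Cldn4, Cldn5, Cldn6, Cldn7 and Cldn18), occludin (Ocln), the scaffold protein ZO-1 (Tjp1) and the junctional adhesion molecule JAM-A (F11r). They were chosen by name, and each was read by its 1 probe set with exactly 1 gene symbol, so that all 9 of the 9 genes were found among 19938 genes on the array. The question put to the data was how the fetal claudin Cldn6 and the claudins of alveolar epithelium and endothelium were expressed as the mouse lung approached birth. RNA of the right lung was measured on Affymetrix Mouse Gene 1.0 ST arrays in C57BL/6J (B6) mice on each embryonic day (E) between E15.5 and E18.5 and on the day of birth (PN0), and in A/J mice at these 5 times and also at E19.5 and E20.5. Both are untreated inbred strains, and each of the 12 groups had 3 replicates, each a pool of 3 male lungs of 1 litter. B6 mice have the shorter gestation, so B6 and A/J newborns differ in age after conception.

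Tight junctions are belts of strands at the apical border of epithelial and endothelial cells. Claudins form the strands and decide which ions and solutes pass between cells, occludin and the junctional adhesion molecules lie beside them in the membrane, and ZO proteins tie them to actin. In the lung this seal holds liquid in the fetal air spaces and keeps plasma out of the alveoli of the newborn. Cldn6 is known as a claudin of embryonic epithelia that is scarce in most adult tissues. Cldn18 is the claudin by which alveolar epithelium, type I cells above all, is recognised, and Cldn5 marks endothelium. Cldn3, Cldn4 and Cldn7 are found in many epithelia.

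Levels are log2 values after RMA, the authors' normalization, so a difference of 1 is a doubling, and no level is set here against that of another gene. Differences were tested with limma over 21789 probe sets. A gene is said to have risen or fallen where the adjusted p was under 0.05 and the difference at least 1.5-fold. The median of an array was between 6.34 and 6.54 over all probe sets. B6 at E18.5 had an extra array (2b), which was averaged with array 2 on the assumption, not settled by the labels, that both belong to replicate 2. Array 2b had r = 0.993 with each of the other 3, while array 2 had r = 0.988 with arrays 1 and 3. Array 2 also stood apart for Cldn3, with a log2 value of 9.63 against 10.15 to 10.40 on the other 3 arrays. The mean of 8 esophagus and upper airway genes lay above 6.4 in 10 of the 36 replicates, 9 of them A/J. The mean of 8 liver genes lay above 6.5 in 4 replicates. In whole lung, fewer cells of a type and less RNA per cell cannot be told apart.

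The promoters of the 4 claudins on which the results turn are shown with the letters that were searched for. Each window runs from 250 bases before to 50 bases after an annotated start in RefSeq (GRCm38.p6), and is written 5′ to 3′ on the strand of the gene. Cldn6 lies at chr17:23679115-23679414 (plus strand), Cldn5 at chr16:18776597-18776896 (plus strand) and Cldn4 at chr5:134946885-134947184 (minus strand). Cldn18 has 2 starts, start 1 at chr9:99717218-99717517 and start 2 at chr9:99710014-99710313 (both minus strand), and its probe set does not separate the transcripts of one from those of the other. Capitals mark the GC box GGGCGG, the Snail E-box CAGGTG, the Nkx2-1 letters CAAGTG and the Foxa letters TGTTTNC, each on either strand, and no match shown overlaps another.
Cldn6: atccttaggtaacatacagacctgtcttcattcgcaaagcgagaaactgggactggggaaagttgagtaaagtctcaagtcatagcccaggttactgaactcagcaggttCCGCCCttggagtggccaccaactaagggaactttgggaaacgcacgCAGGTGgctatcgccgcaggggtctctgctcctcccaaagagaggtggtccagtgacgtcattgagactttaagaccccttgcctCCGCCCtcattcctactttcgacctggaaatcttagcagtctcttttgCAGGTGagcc
Cldn18 start 1: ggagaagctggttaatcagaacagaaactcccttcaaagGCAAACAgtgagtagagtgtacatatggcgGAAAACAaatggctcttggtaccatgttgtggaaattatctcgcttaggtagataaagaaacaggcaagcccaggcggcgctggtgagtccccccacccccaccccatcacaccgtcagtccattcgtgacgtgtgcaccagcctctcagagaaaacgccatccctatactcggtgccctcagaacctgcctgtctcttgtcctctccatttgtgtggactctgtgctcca
Cldn18 start 2: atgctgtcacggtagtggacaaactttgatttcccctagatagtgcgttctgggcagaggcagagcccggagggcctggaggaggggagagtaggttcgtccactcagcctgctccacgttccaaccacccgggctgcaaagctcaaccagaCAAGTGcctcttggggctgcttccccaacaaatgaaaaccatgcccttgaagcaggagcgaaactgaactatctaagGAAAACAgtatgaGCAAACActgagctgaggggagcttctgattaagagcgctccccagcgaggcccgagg
Cldn5: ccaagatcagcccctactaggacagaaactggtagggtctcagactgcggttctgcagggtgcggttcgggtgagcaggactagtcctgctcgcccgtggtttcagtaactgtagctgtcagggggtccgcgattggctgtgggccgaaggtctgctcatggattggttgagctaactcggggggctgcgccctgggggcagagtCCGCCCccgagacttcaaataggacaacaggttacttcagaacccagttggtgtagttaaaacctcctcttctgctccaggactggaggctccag
Cldn4: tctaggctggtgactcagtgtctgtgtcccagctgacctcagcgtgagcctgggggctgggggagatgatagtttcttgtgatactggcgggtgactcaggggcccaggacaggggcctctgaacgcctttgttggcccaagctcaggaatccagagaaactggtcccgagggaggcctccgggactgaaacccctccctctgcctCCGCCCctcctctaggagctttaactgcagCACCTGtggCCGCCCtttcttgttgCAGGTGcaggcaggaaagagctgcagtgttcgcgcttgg

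The Cldn6 and Cldn4 windows each held 2 GC boxes and 2 Snail E-boxes, and the Cldn5 window held 1 GC box. Both Cldn18 windows held 2 matches to the Foxa letters and no GC box, and start 2 held 1 match to the Nkx2-1 letters. Of the 32851 promoters in the table, 35.7% held a GC box, 20.2% a Snail E-box and 13.6% the Nkx2-1 letters, and 6730 held the Foxa letters. The Grhl letters AACCGG (6.83% of all promoters) and the Ets letters AGGAAG (35.4%) were searched for too, and are in none of the windows shown. Over all 12 windows of the 9 genes, 9 held a GC box and 7 a Snail E-box. The 2 Ocln windows overlap and share 1 Snail E-box match, so the windows are not all separate. Their GC content ran from 52.0% to 68.0%, against a median of 52.7% over all promoters. None of the 12 held TATAAA, which 13.6% of all promoters did. These are matches of letters, and binding was not measured.

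Cldn6 was the only one of the 9 genes that was called lower at PN0 than at E15.5. Its log2 values at PN0 were 7.15, 7.16 and 7.03 in B6 and 6.94, 7.06 and 7.24 in A/J. At E15.5 they were 10.67, 10.75 and 10.77 in B6 and 10.83, 10.80 and 10.92 in A/J. Every newborn replicate lay below every E15.5 replicate of its strain, with a wide gap between them. The change was -3.62 in B6 (SE 0.15, adjusted p = 7.66e-19) and -3.77 in A/J (SE 0.15, adjusted p = 2.23e-19), and the measured signal was 12.3-fold and 13.6-fold lower at PN0. The newborn values were close to 6.96, the median of all values of the tested probe sets, and the deposited table gives no detection call, so a low signal and none cannot be told apart there and the fold of the RNA itself is not known.

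Cldn6 was first called lower than at E15.5 at E17.5, in both strains. At E16.5 every replicate already lay below every E15.5 replicate of its strain. That change was -0.33 in B6 (adjusted p = 0.151 by limma) and -0.15 in A/J, and neither was called. In B6 its log2 values were 10.45, 10.40 and 10.34 at E16.5, then 9.05, 9.25 and 9.57 at E17.5. The next values in B6, at E18.5, were 7.76 and 7.43 in replicates 1 and 3, and 7.71 and 8.0 on arrays 2 and 2b. So B6 lungs were near the newborn level by E18.5, where PN0 minus E18.5 was -0.57 (adjusted p = 0.00413, below the 1.5-fold limit).

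In A/J the lowest levels began at E19.5. The Cldn6 values in A/J were 10.63, 10.68 and 10.78 at E16.5, 9.64, 9.50 and 9.34 at E17.5, and 8.91, 9.46 and 8.53 at E18.5. They were 6.99, 7.07 and 6.99 at E19.5 and 6.79, 7.11 and 6.67 at E20.5. The spread at E18.5 (SD 0.47, n = 3) was the widest of any Cldn6 group, and all 3 replicates still lay above all 3 of E19.5. The steepest daily step was -1.95 from E18.5 to E19.5 in A/J (SE 0.15, adjusted p = 3.16e-10) and -1.61 from E17.5 to E18.5 in B6 (SE 0.15, adjusted p = 1.02e-08). In the order of levels in A/J, E15.5 and E16.5 did not differ beyond their error (-0.15, adjusted p = 0.616), nor did E19.5 and E20.5 (-0.16, adjusted p = 0.798) or PN0 and E20.5 (0.22, adjusted p = 0.328).

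**Figure D1:**
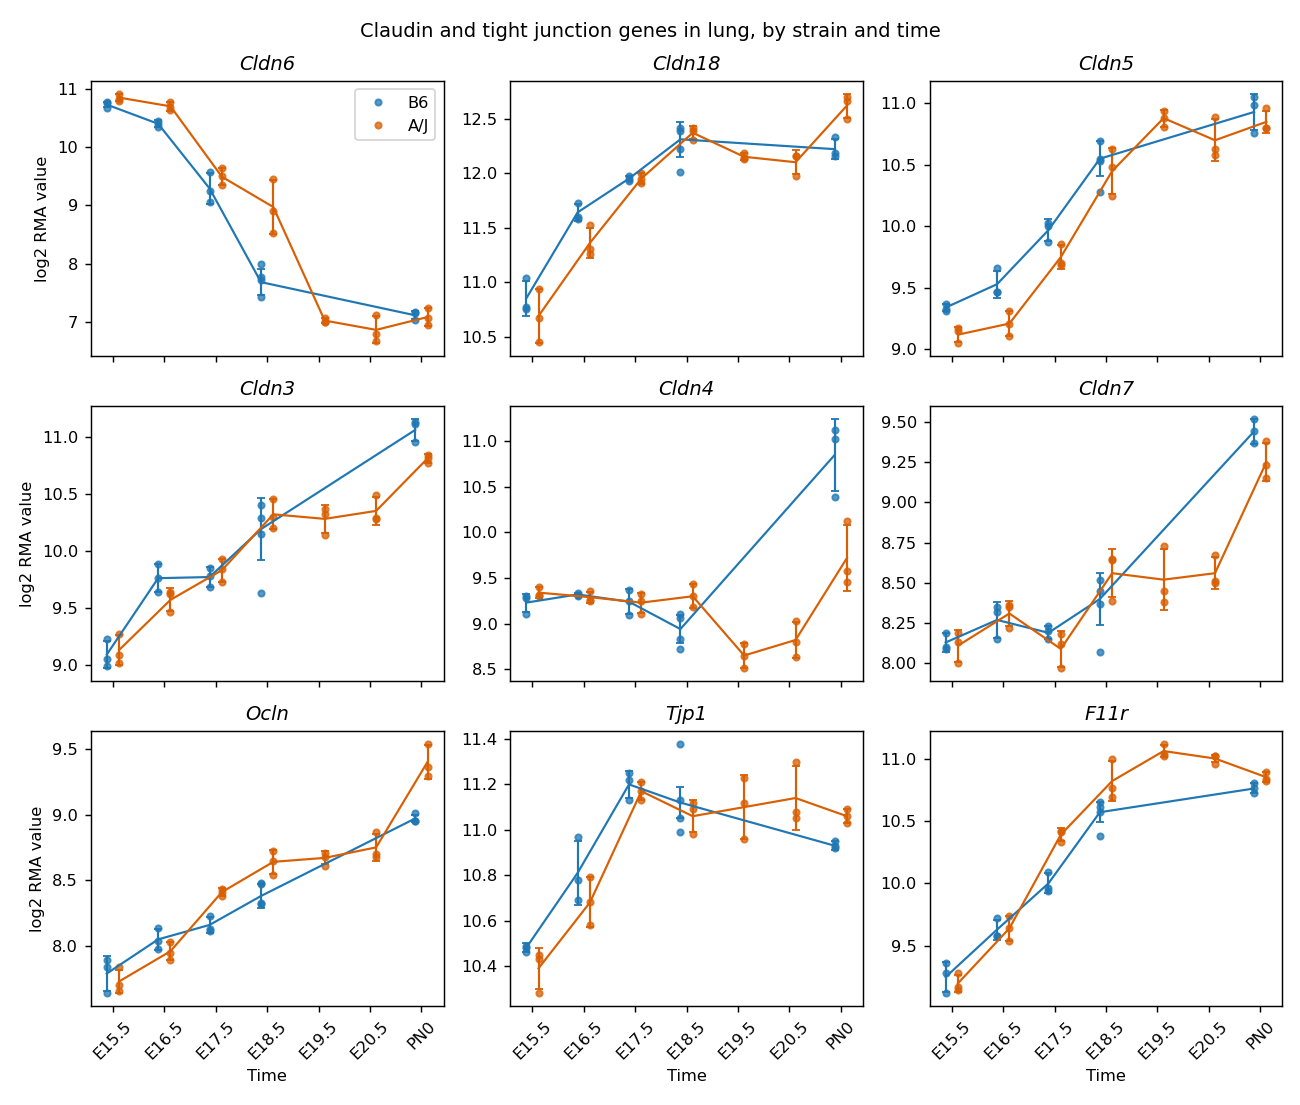
Log2 RMA value of each of the 9 genes (vertical axes, each panel with its own range) at each time (horizontal axes), in B6 (blue) and A/J (orange). Points are arrays, with 4 for B6 at E18.5, and lines join the means of 3 replicates with SD bars. Cldn6 ends near 7 in both strains, with B6 at 7.68 and A/J at 8.97 at E18.5, and Cldn4 at PN0 is 10.85 in B6 and 9.72 in A/J.

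By the 1.5-fold limit Cldn18, the alveolar claudin, was the first of the 9 genes to rise in A/J, at E16.5. It rose at the same time in B6. In B6 its log2 values were 11.58, 11.73 and 11.60 at E16.5, against 10.75, 11.04 and 10.77 at E15.5. In A/J they were 11.52, 11.30 and 11.26 at E16.5, against 10.45, 10.67 and 10.94 at E15.5. The E16.5 replicates lay above those of E15.5 in each strain, by 0.78 in B6 (SE 0.10, adjusted p = 1.17e-06) and 0.67 in A/J (SE 0.10, adjusted p = 2.25e-05). At this step 2 of 9 genes rose in B6, the other being Cldn3 (0.67), and 1 of 9 in A/J, against 2.18% and 1.56% of all probe sets. Below the 1.5-fold limit, Cldn3 (0.45, adjusted p = 0.00602) and F11r (0.44, adjusted p = 0.000216) were higher in A/J too. Tjp1 was 0.30 higher there (adjusted p = 0.0171). In B6 F11r (0.37), Tjp1 (0.34) and Ocln (0.26) also had an adjusted p under 0.05 below that limit. Cldn18 went on to a mean of 12.31 ± 0.16 at E18.5 in B6 and 12.37 ± 0.06 at E18.5 in A/J (SD, n = 3 each).

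Newborn Cldn18 values were 12.18, 12.16 and 12.33 in B6 and 12.66, 12.50 and 12.70 in A/J, so that the highest B6 newborn lay below the lowest A/J newborn. PN0 minus E15.5 was 1.37 in B6 (SE 0.10, adjusted p = 3.29e-13) and 1.93 in A/J (SE 0.10, adjusted p = 8.88e-17). In B6 the newborn level did not differ from E18.5 beyond its error (-0.08, adjusted p = 0.636). In A/J it lay 0.52 above E20.5 (adjusted p = 0.000264, below the 1.5-fold limit). A list of 12 type I cell genes had newborn means of 10.16 to 10.28 in B6 and 10.64 to 10.73 in A/J. Of the 12, 4 were lower in B6, against 4.08% of all probe sets called in either direction. Stomach also expresses Cldn18, and the mean log2 value of 6 stomach genes was 5.90 to 5.94 in B6 newborns and 5.48 to 5.75 in A/J newborns. The part of either tissue in the newborn Cldn18 difference was not tested.

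Cldn5, the endothelial claudin, began to rise a day after Cldn18, at E17.5. Its log2 values in B6 were 9.87 to 10.03 at E17.5, against 9.33, 9.31 and 9.37 at E15.5. In A/J they were 9.69, 9.70 and 9.86 at E17.5, against 9.05, 9.15 and 9.17 at E15.5. The step to E17.5 was 0.63 in each strain (SE 0.10 each), with adjusted p = 3.2e-06 in B6 and 2.94e-06 in A/J. Newborn values were 10.76, 10.99 and 11.05 in B6 and 10.80, 10.96 and 10.80 in A/J, and the strains overlapped. PN0 minus E15.5 was 1.60 in B6 (SE 0.10, adjusted p = 4.5e-15) and 1.73 in A/J (SE 0.10, adjusted p = 5.73e-16). In A/J the newborn mean was 10.85 ± 0.09, and that of E19.5 was 10.88 ± 0.07 (SD, n = 3 each).

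**Figure D2:**
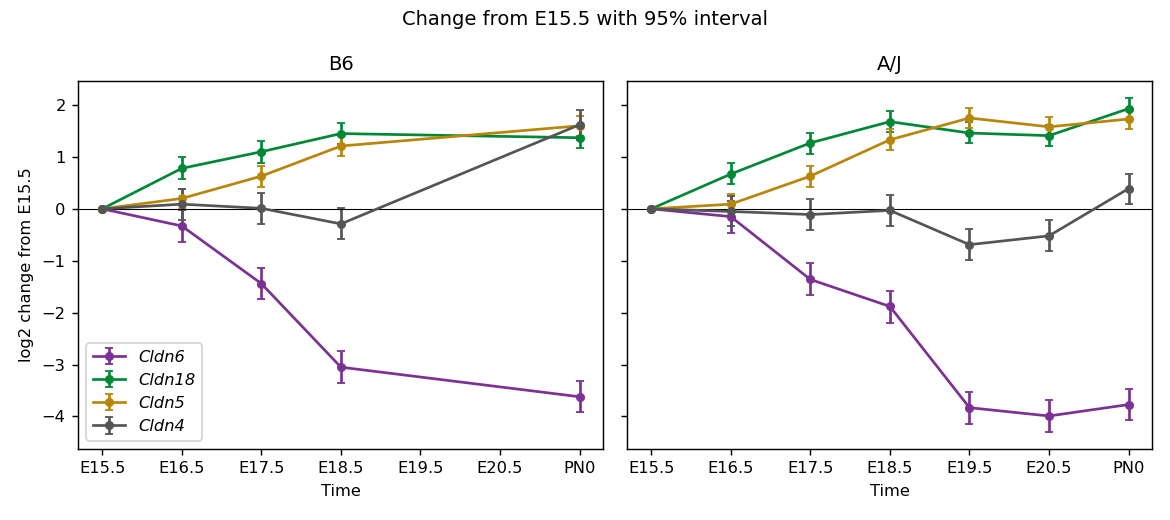
Log2 change from E15.5 (vertical axis) at each time (horizontal axis) for Cldn6, Cldn18, Cldn5 and Cldn4, with 95% intervals from limma, in B6 (left) and A/J (right). By E18.5 Cldn6 had changed by -3.05 in B6 and -1.88 in A/J, while Cldn18 had changed by 1.45 and 1.68 and Cldn4 by -0.29 and -0.03.

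Among the claudins of general epithelium, Cldn3 climbed in gestation and again by PN0. Cldn4 and Cldn7 rose mainly between the last fetal time and PN0. B6 lungs were not sampled between E18.5 and PN0, so a rise before delivery there cannot be told apart from one at birth. From the last fetal time to PN0, Cldn3 rose by 0.87 in B6. In A/J this step was 0.45 (adjusted p = 0.00202, below the 1.5-fold limit). Cldn3 at PN0 had log2 values of 10.95, 11.13 and 11.11 in B6 and 10.77, 10.81 and 10.84 in A/J. At E15.5 these were 8.99, 9.23 and 9.05 in B6 and 9.02, 9.09 and 9.27 in A/J. The change of 1.97 in B6 (SE 0.10, adjusted p = 2.12e-16) and 1.68 in A/J (SE 0.10, adjusted p = 7.71e-15) was already 0.68 and 0.71 at E17.5. Cldn7 by contrast lay within 0.07 of its E15.5 mean at E17.5 in either strain, and the means over the times before birth ran from 8.13 to 8.40 in B6 and 8.09 to 8.56 in A/J. Below the 1.5-fold limit, Cldn7 in A/J was 0.45 above E15.5 at E18.5 (adjusted p = 0.000144) and at E20.5 (adjusted p = 0.000113). In B6 it was 0.27 above E15.5 at E18.5 (adjusted p = 0.0179). At PN0 its values were 9.52, 9.44 and 9.37 in B6 and 9.15, 9.23 and 9.38 in A/J, above every earlier replicate of the same strain.

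Cldn4, whose protein tightens epithelia against sodium, had no called step in B6 lungs up to E18.5 and was higher at PN0. Its fetal B6 means were, day by day, 9.23, 9.32, 9.24 and 8.94. The B6 newborns had log2 values of 10.39, 11.12 and 11.03, all above every fetal replicate. In A/J the gene fell at E19.5, with 8.65, 8.78 and 8.51, against 9.30, 9.43 and 9.18 at E18.5 (-0.66, SE 0.15, adjusted p = 0.00111). At E18.5 and E19.5 the A/J arrays as a whole were shifted as well, the median of all probe sets being 0.12 at E18.5 minus E17.5 and -0.10 at E19.5 minus E18.5. Over the same step the mean of 12 general epithelial genes was 9.83 at E19.5, against 10.12 at E18.5 (median change -0.32, none called), and that of the esophagus genes was 6.03 at E19.5, against 6.78 at E18.5 (median change -0.65, none called). Their part in the fall of Cldn4 was not tested. The A/J newborns had 10.13, 9.46 and 9.58, against 8.63, 8.80 and 9.03 at E20.5. Newborn lungs had the widest spread of Cldn4 in both strains, with an SD of 0.40 in B6 and 0.36 in A/J (n = 3 each), against 0.02 to 0.20 in the fetal groups.

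Beyond the claudins, Ocln and F11r were higher at PN0 than at E15.5 in both strains. Ocln, a membrane protein of the strands, had newborn log2 values of 8.95, 8.95 and 9.01 in B6 and 9.29, 9.36 and 9.54 in A/J, against 7.64, 7.89 and 7.84 in B6 and 7.70, 7.66 and 7.84 in A/J at E15.5. F11r, an adhesion molecule that also binds leukocytes, had 10.72, 10.76 and 10.80 in B6 newborns and 10.82, 10.89 and 10.84 in A/J newborns, against 9.28, 9.36 and 9.12 in B6 and 9.17, 9.28 and 9.15 in A/J at E15.5. Both genes kept their newborn and E15.5 replicates apart. In A/J, F11r was highest at E19.5 (11.06 ± 0.05) and not at birth (10.85 ± 0.04, SD, n = 3 each). Tjp1, the scaffold, moved least of the 9, with means of 10.48 at E15.5, 11.20 at E17.5 and 10.93 at PN0 in B6, and 10.39, 11.17 and 11.06 in A/J. It had risen by E17.5, where it was highest, by 0.72 in B6 (SE 0.08, adjusted p = 8.93e-09) and 0.78 in A/J (SE 0.08, adjusted p = 1.28e-09), with a range of group means of 0.72 in B6 and 0.78 in A/J.

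Set against E15.5, newborn lungs had 7 of the 9 genes higher, 1 lower and 1 neither in B6, and the same counts in A/J. Of all probe sets, 12.7% were higher and 13.4% lower in B6, and 13.7% were higher and 11.8% lower in A/J. Cldn3, Cldn5, Cldn7, Cldn18, Ocln and F11r rose in both strains. The seventh was Cldn4 in B6 (1.62, SE 0.15, adjusted p = 3.93e-11) and Tjp1 in A/J (0.67, SE 0.08, adjusted p = 9.86e-09). Cldn4 in A/J (0.39, adjusted p = 0.0262) and Tjp1 in B6 (0.46, adjusted p = 9.3e-06) were below the 1.5-fold limit. The median change of the 9 genes was 1.37 in B6 and 1.65 in A/J, against -0.00 and -0.04 over all probe sets. The PN0 and E15.5 replicates did not overlap in 9 of 9 genes in each strain, and in 57.4% of all probe sets in B6 and 55.2% in A/J. Over the whole course, 8 of 9 genes passed limma's F test at an adjusted p under 0.01 with a 2-fold range in each strain, all but Tjp1 (Cldn4 in A/J had a range of 0.87, under 2-fold, without A/J PN0 replicate 1), against 14.4% of all probe sets in B6 and 17.8% in A/J.

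**Figure D3:**
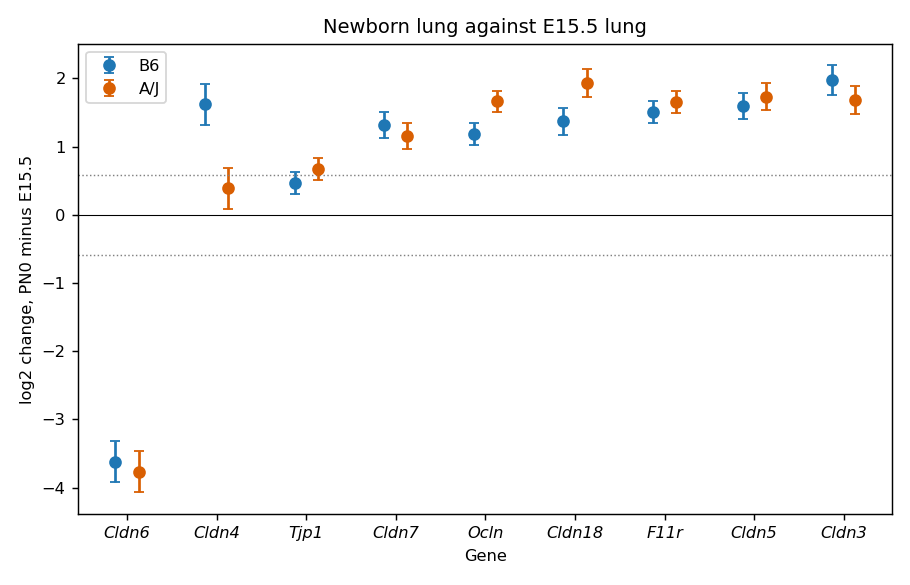
Log2 change at PN0 against E15.5 (vertical axis) for each gene (horizontal axis) in B6 (left point, blue) and A/J (right point, orange), with 95% intervals from limma and dotted lines at the 1.5-fold limit. Cldn6 lies at -3.62 in B6 and -3.77 in A/J and the other 8 genes above 0, with Cldn4 at 1.62 in B6 and 0.39 in A/J.

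The step from the last fetal time to PN0 was called for Cldn4, Cldn7 and Ocln in both strains. In A/J, where E20.5 is the last fetal time, these 3 of 9 genes were higher at PN0 and none lower by limma (5 higher and 0 lower at an unadjusted p under 0.05), against 2.08% of all probe sets higher and 1.95% lower. The differences were 0.90 for Cldn4 (SE 0.15, adjusted p = 3.05e-05), 0.69 for Cldn7 (SE 0.09, adjusted p = 2.4e-06) and 0.65 for Ocln (SE 0.08, adjusted p = 3.85e-07). The newborn and E20.5 replicates did not overlap in 6 of the 9 genes, against 33.4% of all probe sets. Ocln was just below the 1.5-fold limit after quantile normalization (0.58) and without A/J PN0 replicate 3 (0.57). Cldn18 (0.52, adjusted p = 0.000264) and Cldn3 (0.45, adjusted p = 0.00202) were higher too, but below the 1.5-fold limit. Cldn5 (0.15), Tjp1 (-0.08) and F11r (-0.15) did not pass, with adjusted p of 0.294, 0.513 and 0.179. In B6, where the step from E18.5 to PN0 is longer, 4 of 9 genes rose, against 3% of all probe sets: Cldn4 by 1.90, Cldn7 by 1.05, Cldn3 by 0.87 and Ocln by 0.59. Cldn18, which had passed the limit first in A/J, was not called at this step in either strain.

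Up to E17.5 limma called none of the 9 genes between the strains. Of all probe sets it called 0.863% on E15.5, 1.18% the next day and 1.75% on E17.5. At an unadjusted p under 0.05 there were 1, 2 and 3 of the 9 genes. By the adjusted p alone there were 0, 1 and 2, against 2.46%, 8.09% and 10.9% of all probe sets, namely Cldn5 at E16.5 (0.32, adjusted p = 0.0359), and Ocln (-0.25, adjusted p = 0.0356) and F11r (-0.39, adjusted p = 0.00102) at E17.5, as B6 minus A/J.

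At E18.5 Cldn6 alone was called, lower in B6 by 2.44-fold, and 4.05% of all probe sets were called. Its values were 7.43 to 8.0 on the 4 B6 arrays and 8.53 to 9.46 in the 3 A/J replicates, without overlap. The difference was -1.29 (SE 0.15, adjusted p = 3.49e-07), while the median over all probe sets was -0.13, and centring the arrays on their medians gave -1.20. Ocln (-0.26) and F11r (-0.24) had an adjusted p of 0.0111 and 0.0149, which made 3 of 9 genes by the adjusted p alone, against 31.8% of all probe sets. After centring they had 0.121 and 0.199. The mean of 9 proliferation genes was 8.12 to 8.58 in B6 and 8.69 to 9.08 in A/J at E18.5, with 6 of 9 lower in B6. In both strains the 3 replicates of E18.5 stood in the same order for Cldn6 and for these genes. In B6 the place of replicate 2 for Cldn6 rests on averaging array 2b (8.0) with array 2. Array 2 alone (7.71) lay below replicate 1 (7.76). The part of cell division in the Cldn6 difference was not tested. At PN0, 7 of the 9 proliferation genes were higher in B6 (means of 7.57 to 7.64 in B6 and 6.86 to 7.15 in A/J), and Cldn6 differed by 0.03 (adjusted p = 0.914).

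The esophagus genes also differed at E18.5, with means of 5.27 to 5.80 in B6 and 6.60 to 6.98 in A/J, and 5 of 8 were lower in B6. All 3 A/J replicates of this time were high for them, so there is no E18.5 value without such replicates, and their part in the difference was not tested. At E19.5, E20.5 and PN0 in A/J, 4 of the 9 replicates were high for the esophagus genes, and these had Cldn6 values of 6.67 to 7.11, against 6.79 to 7.24 in the other 5. The ranges of these later lungs overlapped, but they lie where a low signal and none cannot be told apart. They therefore cannot show how such replicates differ at E18.5.

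B6 pups are born earlier, so B6 at E18.5 was also set against A/J at E19.5, a day older. Cldn6 was then higher in B6 by 0.66 (SE 0.15, adjusted p = 0.00326), with 7.43 to 8.0 on the B6 arrays and 6.99 to 7.07 in the A/J replicates. It was 1 of 9 genes called, and 2.36% of all probe sets were called. Below the 1.5-fold limit, F11r (-0.49, adjusted p = 5.23e-05) lay lower in B6. So did Cldn5 (-0.33, adjusted p = 0.0253) and Ocln (-0.29, adjusted p = 0.0128). Without replicate 2 of B6 at E18.5 the Cldn6 difference was 0.58 (adjusted p = 0.0296), just under the 1.5-fold limit. The proliferation genes were higher in B6 here as well, 8 of 9 (means of 8.12 to 8.58 in B6 and 7.15 to 7.81 in A/J). The A/J values of Cldn6 lie where a low signal and none cannot be told apart, so the Cldn6 difference is one of measured signal.

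At PN0 the only called strain difference was Cldn4, 2.18-fold higher in B6, and 4.08% of all probe sets were called. Strain and age after conception cannot be told apart at PN0. The B6 newborns, at 10.39, 11.12 and 11.03, lay above the A/J newborns, at 10.13, 9.46 and 9.58 (1.12, SE 0.15, adjusted p = 1.47e-06). Leaving out single replicates gave 0.99 to 1.35, and the adjusted p was 0.00754 when only these groups were fitted, so that their own wide spread set the error. Cldn18 (-0.40, adjusted p = 0.00446) and Ocln (-0.43, adjusted p = 0.000167) lay lower in B6, below the 1.5-fold limit, which made 3 of 9 genes by the adjusted p alone, against 19.9% of all probe sets. The newborns of the strains did not overlap in 6 of 9 genes and in 32.5% of all probe sets. The mean of 12 general epithelial genes averaged 10.05 in B6 newborns and 10.17 in A/J newborns. Of the A/J newborns, replicate 2 was high for esophagus genes (7.18) and had the lowest Cldn4 (9.46), and without the replicates high for these genes the Cldn4 difference was 0.99 (adjusted p = 0.000223).

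The course itself differed between strains for 5 of the 9 genes by the interaction F test over the 5 shared times, against 16.2% of all probe sets. For Cldn4 (adjusted p = 0.000106) the change from E15.5 to PN0 was larger in B6 by 1.23 (SE 0.21, adjusted p = 0.000299). For Cldn6 (adjusted p = 0.000404) the difference lay at E18.5, where the change from E15.5 was -3.05 in B6 and -1.88 in A/J (difference -1.17, SE 0.21, adjusted p = 0.00154). The change to PN0 was smaller in B6 for Cldn18 and Ocln, with differences of -0.56 (SE 0.14, adjusted p = 0.0137) and -0.48 (SE 0.11, adjusted p = 0.00657). Newborns of the strains differ in age after conception, so in the changes to PN0 strain and age cannot be told apart. For F11r the difference lay at E17.5 (-0.44, SE 0.11, adjusted p = 0.0463). Cldn3, Cldn5, Cldn7 and Tjp1 did not pass, with adjusted p of 0.166, 0.522, 0.243 and 0.359 in this test.

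**Figure D4:**
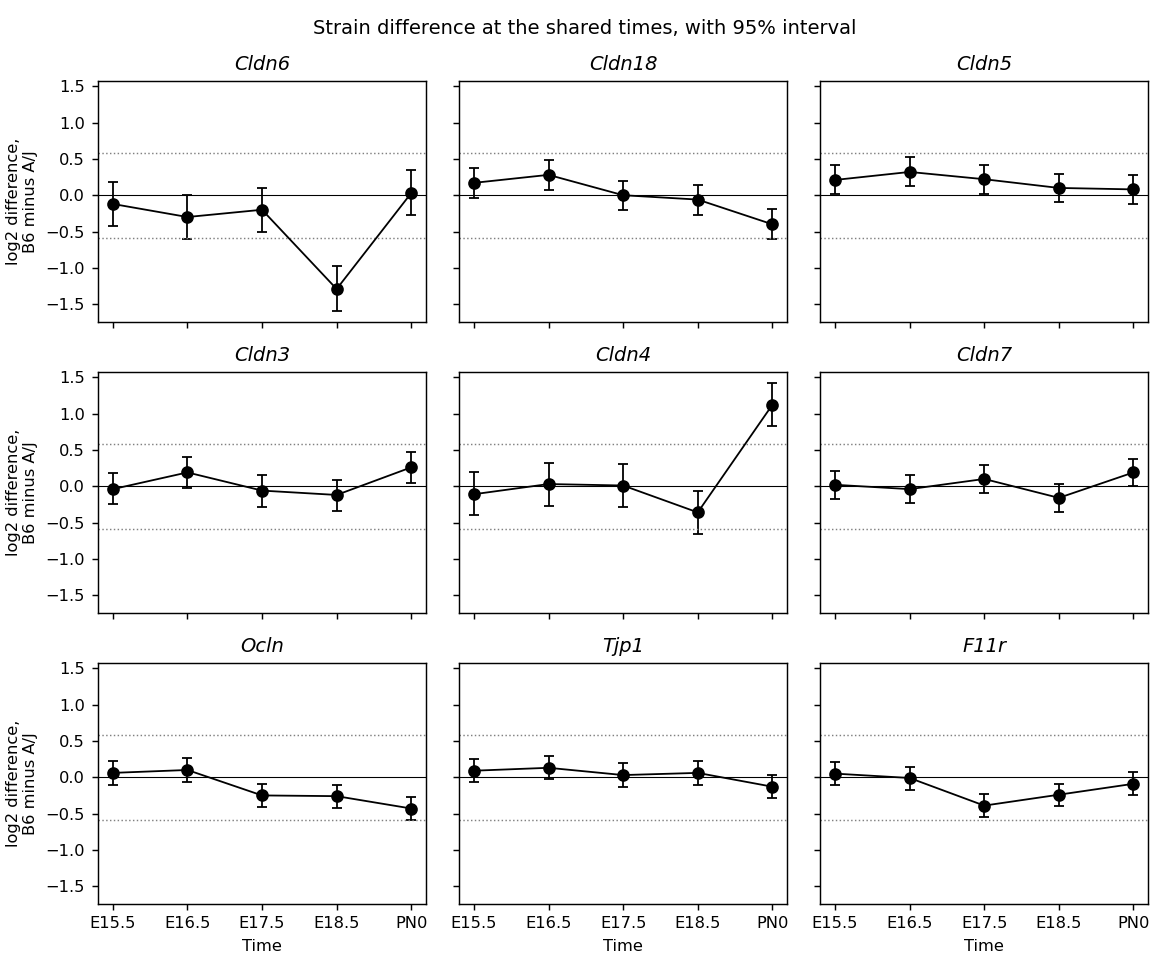
Log2 difference B6 minus A/J (vertical axis) at the 5 shared times (horizontal axis) for each gene, with 95% intervals from limma and dotted lines at the 1.5-fold limit. Past these lines lie Cldn6 at E18.5 (-1.29) and Cldn4 at PN0 (1.12).

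The 9 genes did not form 1 pattern. Over the 12 group means, which share arrays and a common trend with age, Cldn6 and Cldn5 ran opposite with Pearson's r = -0.974, Cldn6 and Cldn18 with r = -0.823, and Cldn6 and F11r with r = -0.925. Cldn4 stood apart, with r of -0.100 to Cldn6, 0.121 to Cldn18, 0.166 to Cldn5 and 0.688 to Cldn7. Among 4524 genes whose group means spanned at least 1 log2 unit, the ones most like Cldn6 were Tmpo, which encodes a protein of the inner nuclear membrane (r = 0.999), Rrm1, a subunit of ribonucleotide reductase (0.997), and Cenpi, a centromere protein (0.996). For Cldn18 they were Anxa2 (0.992), Fads3 (0.992) and Mab21l4 (0.982), and for Cldn5 they were Pglyrp1 (0.992), Cyyr1 (0.990) and Sema7a (0.990). Those nearest to Cldn4 were Pmvk, of the mevalonate pathway (0.962), the ephrin receptor Epha2 (0.955) and the serotonin receptor Htr2a (0.953).

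For the remaining genes the nearest were Ceacam1, Mfsd6 and Pon2 for Cldn3 (r = 0.982 to 0.983), Parvb, P2ry2 and Klf2 for Cldn7 (0.970 to 0.981), and Gja4, Serpinb1a and Myadm for Ocln (0.984 to 0.990). Trpm6, Macf1 and Iqgap1 were nearest to Tjp1 (0.974 to 0.981), and Ypel3, Smagp and 1700088E04Rik to F11r (0.992 to 0.994).

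Marker genes of the cells that carry these junctions moved over the same span. Beside the counts below, 12.7% of all probe sets were higher and 13.4% lower in B6, and 13.7% higher and 11.8% lower in A/J. From E15.5 to PN0, 8 of 12 general epithelial genes were higher in each strain and 1 was lower in B6 (median change 1.14 in B6 and 1.1 in A/J). Of 12 type I cell genes, 9 were higher in B6 and 11 in A/J, with 1 lower in each (median 2.37 and 2.73), and of 12 endothelial genes, 8 and 10 were (median 0.76 and 1.0). Type II cell genes had the largest median changes among these lists, 4.04 in B6 and 3.82 in A/J, with 10 of 11 higher in each strain and 1 lower in A/J. Of 7 club and ciliated cell genes, 4 were higher in B6 and 6 in A/J (median 1.2 and 1.4). All 9 proliferation genes were lower in both strains. The share of the junction genes' changes that came with these cells was not tested.

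Of 19 other claudins 17 were measured, and from E15.5 to PN0 limma called 2 higher and none lower in B6, and 4 higher and none lower in A/J. At an unadjusted p under 0.05 there were 3 higher and 1 lower in B6, and 6 higher and 3 lower in A/J. The median change was -0.11 in B6 and 0.22 in A/J. The shares of all probe sets beside these and the next counts are 12.7% higher and 13.4% lower in B6, and 13.7% higher and 11.8% lower in A/J, so the B6 share of other claudins called higher is near that of all probe sets. Cldn9, which lies next to Cldn6 on chromosome 17 and is similar in sequence, changed by -0.25 in B6 and -0.54 in A/J, below the 1.5-fold limit, and its group means stayed between 6.19 and 6.73. Whether the probes of either gene also read the other was not tested. Cldn1, a claudin of skin and airway, changed by -0.11 in B6 and -0.37 in A/J. Cldn2, which forms a cation pore, rose by 0.64 in A/J (adjusted p = 0.00192) and changed by 0.34 in B6 (adjusted p = 0.0936). The group means of Cldn2 lay between 3.92 and 4.90, and only 11.6% of probe sets had a lower mean. A low signal and none cannot be told apart there, so its rise is one of measured signal. Cldn10, which has pore-forming isoforms, rose in B6 (0.84, adjusted p = 4.3e-08) and changed by 0.55 in A/J, below the limit.

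At birth in A/J Cldn10 was lower. Its newborn values were 9.21, 9.10 and 9.04, against 10.44, 10.10 and 10.38 at E20.5, a difference of -1.19 (SE 0.11, adjusted p = 1.35e-09). In B6 it had 9.76, 9.52 and 9.46 at PN0 and a mean of 10.04 at E18.5.

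Of 11 other membrane proteins of the junction, 6 were higher and 1 lower at PN0 in B6, and 5 higher and 1 lower in A/J (median change 0.74 in B6 and 0.56 in A/J). Igsf5 (JAM4), an adhesion protein, rose by 1.61 in B6 and 1.35 in A/J (adjusted p = 3.29e-14 and 1.67e-12). Jam3, found in endothelium and mesenchyme as well, changed by -1.09 in B6 and -1.15 in A/J (adjusted p = 1.01e-11 and 2.83e-12). Marveld2, the tricellulin gene next to Ocln on chromosome 13, changed by 0.31 in B6 and 0.50 in A/J, below the limit.

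Of 23 scaffold and polarity genes 20 were measured, and 4 were higher and 2 lower in B6, and 4 higher and 3 lower in A/J (median change 0.01 in B6 and 0.12 in A/J). Pard6b, a subunit of the Par polarity complex, rose most of the 20, by 2.61 in B6 (SE 0.11, adjusted p = 1.37e-18) and 2.14 in A/J (SE 0.11, adjusted p = 9.24e-17). Its partner Prkcz, an atypical protein kinase C, rose by 1.02 in B6 and 1.49 in A/J. The multi-PDZ scaffold Mpdz changed by -1.24 in B6 and -1.11 in A/J, and Sympk, a 3′ end processing factor that is also found at the junction, by -0.73 and -0.62, all past the threshold.

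Genes of transcription factors of epithelium and endothelium were counted the same way. Of 15 measured epithelial regulators, 4 were higher and 1 lower at PN0 in B6, and 3 higher and 1 lower in A/J (median change 0.21 in B6 and 0.13 in A/J). Grhl2, which activates Cldn4 in mouse epithelia, changed by -0.18 in B6 and -0.26 in A/J. Nkx2-1, which activates a lung promoter of Cldn18, changed by 0.18 in B6 and 0.21 in A/J, Foxa1 by -0.54 in B6 and -0.35 in A/J, and Foxa2 by 0.20 in B6 and 0.13 in A/J, all below the 1.5-fold limit. Of 11 endothelial regulators, 9 were higher and none lower in each strain (11 higher and 0 lower at an unadjusted p under 0.05; median change 0.91 in B6 and 1.11 in A/J). Sox17 rose by 0.83 in B6 and 1.23 in A/J, Erg by 0.65 in B6 and 0.82 in A/J, and Foxo1, which represses Cldn5 in endothelium, by 0.95 in B6 and 0.64 in A/J.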

How the data were processed

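Deposited log2 values came from RMA, run by the authors with Affymetrix Expression Console 1.1 (submitters' processing notes), for 35556 probe sets on 37 arrays, which were used as deposited. The genome build behind the array design is not given in the sources used here. Probe sets took symbols from the platform's annotation, and 21789 carried 1 symbol, 1621 several and 12146 none.

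Group means of 36 replicates were fitted in limma 3.58.1 (R 4.3.3; 24 residual degrees of freedom), with the Benjamini-Hochberg adjustment over the 21789 probe sets. Contrasts needed a 1.5-fold difference with an adjusted p below 0.05, courses (F test) a 2-fold range with an adjusted p below 0.01, and strain by time an adjusted p below 0.05. SE and 95% intervals are moderated values of limma. The time-series model of the study and its RT-PCR were not run or analysed here. The number of arrays limits the precision, and p values measure the spread between litter pools.

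The 9 genes and the gene lists were chosen with earlier results of these data known. Named beside them are the 3 list genes that rose most and the 3 that fell most among those called in both strains, Cldn1, Cldn2, Cldn9, Cldn10 and 7 regulators, and the 3 genes most like each member. Marveld2, Cldn13 and Cldn15 were added after their values were seen. Promoters are from RefSeq (GRCm38.p6) and matched all 9 genes. The fit was tested on simulated data. Figures were drawn with matplotlib 3.10.9. Alternatives covered scaling, probe sets tested, empirical Bayes settings, groups fitted, thresholds, array 2b, a replicate block and the omission of each replicate.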

Additional observations from a re-analysis of the deposited data

Results flagged for a closer look

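For 5 of the 9 genes the course over the shared times differed between B6 and A/J by limma's interaction F test, with adjusted p of 0.000106 for Cldn4, 0.000404 for Cldn6, 0.00328 for Ocln, 0.00923 for Cldn18 and 0.0191 for F11r, against 16.2% of all probe sets that passed it. The largest single contrast was for Cldn4 at PN0 (1.23) and for Cldn6 at E18.5 (-1.17). At PN0 the strains also differ in age after conception. Without the 10 replicates high for esophagus genes, which removes all of A/J at E18.5, Cldn6 (adjusted p = 0.281) and F11r (0.133) no longer passed, and without the 4 replicates high for liver genes F11r did not (0.0663).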

How the results depend on the processing

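No result of a single gene that was called turned direction under any setting run. Small differences that were not called could change sign. For Cldn3, B6 minus A/J at E15.5 ran from -0.11 to 0.04 when single replicates were left out. Of 1593 values of single genes under settings other than leaving out a replicate, 1566 kept their call, 9 lost it and 18 gained it, and 3885 of 3888 kept it when 1 replicate was left out. With no fold limit, B6 minus A/J gave 1 of the 9 genes on E16.5, 2 on E17.5, and 3 each on E18.5 and PN0, B6 at E18.5 minus A/J at E19.5 gave 4, and PN0 minus E20.5 in A/J gave 5. With a 2-fold limit both of the last comparisons gave 0, where limma without a fold limit gave 4 and 5. Leaving out replicates gave 0 to 1 for B6 at E18.5 minus A/J at E19.5, the 0 without B6 E18.5 replicate 2. Strain by time gave 3 without the replicates high for esophagus genes, an alternative chosen after seeing the data, as were leaving out replicates high for liver genes and array 2b in place of array 2. Ocln at birth in A/J was 0.58 after quantile normalization and 0.57 without A/J PN0 replicate 3, just under the limit, and the range of Cldn4 in A/J was 0.87 without A/J PN0 replicate 1. The cause was not tested.

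Equal replicate numbers did not pair the samples (mean r of deviations -0.010 for equal numbers and 0.005 for different ones). With the replicate number as a block, the counts were 8 for each course and for PN0 minus E15.5 in each strain, 0 for B6 minus A/J up to E17.5, 1 each on E18.5 and PN0, 1 for B6 at E18.5 minus A/J at E19.5, 3 for PN0 minus E20.5 and 5 for strain by time, as without it.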

Other observations

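Cldn13 and Cldn15, chosen here after their values were seen, were the 2 claudins outside the 9 genes that passed limma's adjusted p and the 1.5-fold limit between newborns of the strains. Cldn13, a claudin gene of mice that lies near Cldn4 on chromosome 5, had newborn log2 values of 5.78, 5.48 and 5.01 in B6 and 7.41, 6.93 and 7.09 in A/J (-1.72, SE 0.33, adjusted p = 0.00033). The B6 newborn values of Cldn13 lay below the lowest array median, 6.34, where a low signal and none cannot be told apart. In A/J its values before birth were 5.98, 6.83 and 5.69 at E19.5 and 6.91, 6.91 and 7.01 at E20.5, and the B6 means at E16.5 to E18.5 were 5.28 to 5.46. In B6 at E15.5 it was 7.13 in replicate 1, where the mean of the liver genes was 8.19, against 5.03 and 5.41 in the others, where it was no higher than 5.35. In A/J newborns the mean of the liver genes was 5.28 to 5.35.

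Cldn15, which forms a cation pore in intestine, had newborn values of 6.60, 6.48 and 6.55 in B6 and 7.45, 7.26 and 7.17 in A/J (-0.75, SE 0.13, adjusted p = 0.000102). Its change from E15.5 to PN0 was 0.12 in B6 (adjusted p = 0.484) and 0.87 in A/J (adjusted p = 1.01e-06), and its course differed between the strains (adjusted p = 0.00277).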
